A study of Mus musculus with 13 samples.

Results

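Transcription factors of the heart muscle lineage were followed by gene symbol in the 55536 genes of the broader deposited count table. The 10 members were Gata4, Gata6, Nkx2-5, Tbx5, Tbx20, Mef2a, Mef2c, Mef2d, Hand2 and Srf. All 10 were found once and all 10 passed the filter on low counts, as did 16125 genes in all. RNA was read in nuclei of mouse ventricles, enriched for cardiomyocytes by sorting on Pcm1, a protein found around their nuclei. All mice were C57BL/6J. On postnatal day 1 each pup was injected once, into the abdominal cavity, with AAV6, a virus that carries genes into heart muscle, and the hearts were taken on day 56. PGR_F (3 libraries) and PGR_M (3) are females and males given the virus with the human progesterone receptor, labelled PR or PGR, a steroid receptor that itself binds DNA. Con_F (4 libraries) and Con_M (3) are females and males given the same serotype without an insert. All 4 groups received virus. Each library pooled 3 to 6 whole ventricles, and the labels used here do not name the promoter that drives the insert.

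These factors bind DNA side by side at the enhancers of heart muscle genes. GATA zinc finger proteins, the homeodomain protein Nkx2-5 and the T-box proteins bind one another and act together in the embryo, where mice that lack one of them often fail to form a working heart. The MADS-box proteins Srf and Mef2 bind AT-rich sites in the promoters of contractile genes, and the basic helix-loop-helix protein Hand2 acts in the growth of the right ventricle. In the adult ventricle most of them are still made and take part in keeping the contractile, metabolic and stress programmes of the cardiomyocyte.

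Total counts were 31.8 to 86.3 M per library. The counts of the 10 members together made up 0.194% to 0.226% of a library. The 10 cardiomyocyte markers, among them Myh6, Tnnt2 and Ryr2, summed to 80958 to 100117 CPM (counts scaled to a common library size with TMM factors) in every library, while 10 fibroblast markers summed to 56.1 to 141 CPM and 11 endothelial markers to 32.5 to 83.5 CPM, with 0 genes of either list at 0 in any library. Smooth muscle and pericyte markers summed to 302 to 364 CPM, macrophage markers to 15.2 to 27.0, atrial markers to 14.8 to 30.3 and epicardial and endocardial markers to 5.18 to 11.3. Most of the smooth muscle and pericyte sum came from Abcc9, with group means of 269 to 301 CPM. On the same list Acta2, Rgs5 and Pdgfrb had group means of 2.73 to 7.45 CPM. The human insert was not measured here, and the mouse gene Pgr had 1 to 6 counts in PGR_F, 0 to 8 in PGR_M, 1 in each Con_F library and 0 to 1 in Con_M. Transcripts of 4 Y-linked genes reached 1.01% of the male mean in Con_F 4, against 0.0112% to 0.112% among the remaining females. Con_M 1 and Con_M 3 were the pair of replicates that differed most in their counts.

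Upstream sequence is shown for the pair of members whose levels varied most between libraries, Srf and Hand2. RefSeq sequence of the GRCm38.p6 build was read for 7 of the 10 members, as 9 promoters. No promoter of Gata4, Gata6 or Tbx5 was read, so the matches below do not speak for these genes. Each stretch holds the 250 bases before the annotated start, 5′ to 3′ on the strand of the gene. Capitals mark CArG boxes, the sites that Srf binds, in the Srf promoter (chr17:46556163-46556412, minus strand), and GATAA, the core read by GATA factors, in the Hand2 promoter (chr8:57320733-57320982, plus strand).
Srf: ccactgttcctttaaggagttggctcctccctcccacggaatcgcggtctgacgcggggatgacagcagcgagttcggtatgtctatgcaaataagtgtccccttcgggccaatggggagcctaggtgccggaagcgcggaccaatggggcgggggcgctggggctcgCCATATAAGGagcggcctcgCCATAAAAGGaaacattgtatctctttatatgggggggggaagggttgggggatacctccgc
Hand2: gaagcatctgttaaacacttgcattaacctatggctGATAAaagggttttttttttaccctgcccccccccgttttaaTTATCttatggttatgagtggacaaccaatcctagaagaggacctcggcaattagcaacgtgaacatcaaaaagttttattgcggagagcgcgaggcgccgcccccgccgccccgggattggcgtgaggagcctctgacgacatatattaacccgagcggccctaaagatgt
The Srf stretch held 2 CArG boxes, CCATATAAGG at 82 to 73 bases and CCATAAAAGG at 62 to 53 bases before the start, both readable on either strand. Of all 32851 promoters in the table, 1.47% held a CArG box in the same 250 bases. The Hand2 stretch held GATAA at 214 to 210 bases and its reverse complement TTATC at 172 to 168 bases before the start, and 22.6% of all promoters held GATAA on either strand. None of the 9 member promoters held the MEF2 site, which 2.92% of all promoters held, and the second of the 3 Mef2c promoters was the only other one with GATAA. These matches describe the letters in the window and were not tested as binding sites.

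All 10 factors were read well above the filter, and their order per length put a Mef2 gene at each end. The values are CPM per kilobase of the whole gene interval, introns included, as mean ± SD over the 13 libraries. Mef2d was highest at 11.4 ± 1.17, followed by Gata4 at 6.74 ± 0.536, Gata6 at 6.15 ± 0.630, Hand2 at 4.27 ± 0.923 and Tbx20 at 3.73 ± 0.457. Nkx2-5 followed at 3.45 ± 0.526, Mef2a at 3.16 ± 0.284, Tbx5 at 2.87 ± 0.305, Srf at 2.07 ± 0.548 and Mef2c at 1.23 ± 0.179. Mef2d lay above Gata4 with no overlap of their ranges, and it was at percentile 98.8 of the tested genes by this measure. The ranges of all the other neighbours in the order overlapped. Gata6 was above Hand2, and Srf above Mef2c, in 13 of 13 libraries. Between Gata4 and Gata6, Hand2 and Tbx20, Tbx20 and Nkx2-5, Nkx2-5 and Mef2a, and Mef2a and Tbx5 the means differed by less than the larger SD of the pair, and the upper member was the higher one in only 8 to 10 of 13 libraries. Tbx5 was above Srf in 11 of 13. The exons of GENCODE cover 5.36% of the interval of Gata4 but 64.4% of that of Hand2 and 36.9% of that of Srf, so spliced and unspliced RNA weigh differently in these values.

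**Figure D1:**
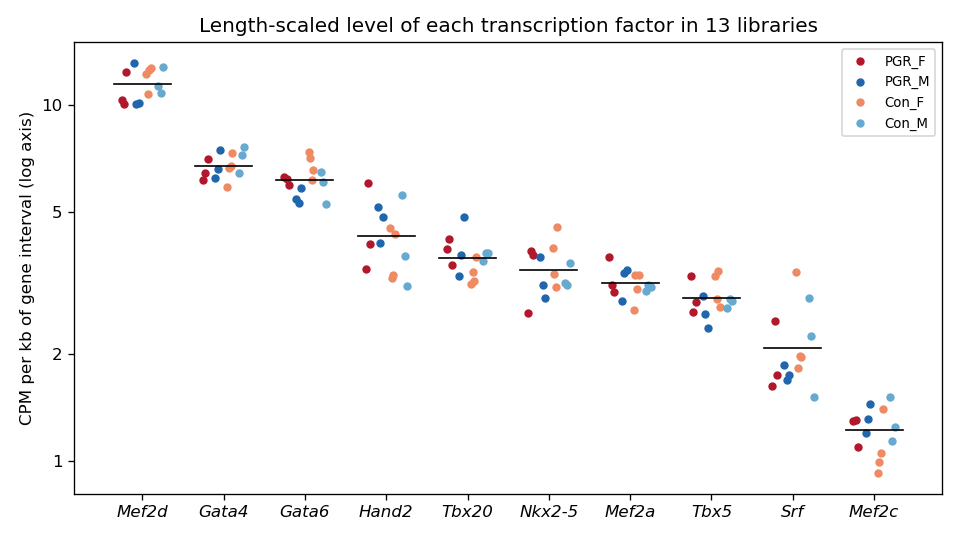
Level of each factor in CPM per kilobase of gene interval (log axis); each point is 1 library, coloured by group, and the line is the mean over the 13 libraries. Mef2d stands alone at the top (10.02 to 13.1) and Mef2c at the bottom (0.927 to 1.52), and the 4 groups lie within one another's spread for most genes.

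The first question was whether the progesterone receptor vector changed these factors, in females, in males or in both. No member passed the test in any of the 3 comparisons. EdgeR's quasi-likelihood test with Benjamini-Hochberg adjustment over all 16125 genes called 0 of 10 members in females, where 0% of all genes were called, and 0 of 10 in males, where 0% were called. Averaged over the sexes it called 0 of 10, where 0.0062% of all genes were called (1 gene). Without Con_F 4 the averaged comparison called 338 genes, the female one 20 and the male one 1. Without PGR_F 4 the averaged comparison called 34 genes, and without Con_M 3, PGR_M 1 or PGR_M 2 it called 2 to 4, while the male one called 3 without PGR_M 2. There were 0 members among the calls in each. At an unadjusted p under 0.05 it held 0 of 10 members in each comparison, beside 10.9% of all genes in females, 7.48% in males and 14.8% averaged, and DESeq2, which called 81, 29 and 334 genes in these comparisons, called 0 members as well, beside 0.595%, 0.187% and 2.51% of all genes with an adjusted p. Without the filter on low counts edgeR held Tbx20 alone under an unadjusted 0.05, at a log2 fold change of 0.21 in females (adjusted p = 0.667) and 0.15 averaged (adjusted p = 0.501). The median log2 fold change of the members was -0.05 in females, -0.04 in males and -0.06 averaged, beside 0.00 over all genes in each, and 4 of 10 members lay above 0 in each comparison. In bulk RNA a smaller number of nuclei of one kind and less RNA per nucleus cannot be told apart. The CPM of the PGR and Con libraries overlapped for 10 of 10 members in each sex. Over all genes the groups did not overlap for 8.24% in females and 15.7% in males, and both PGR groups lay clear of both Con groups for 0 of 10 members, beside 0.62% of all genes.

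**Figure D2:**
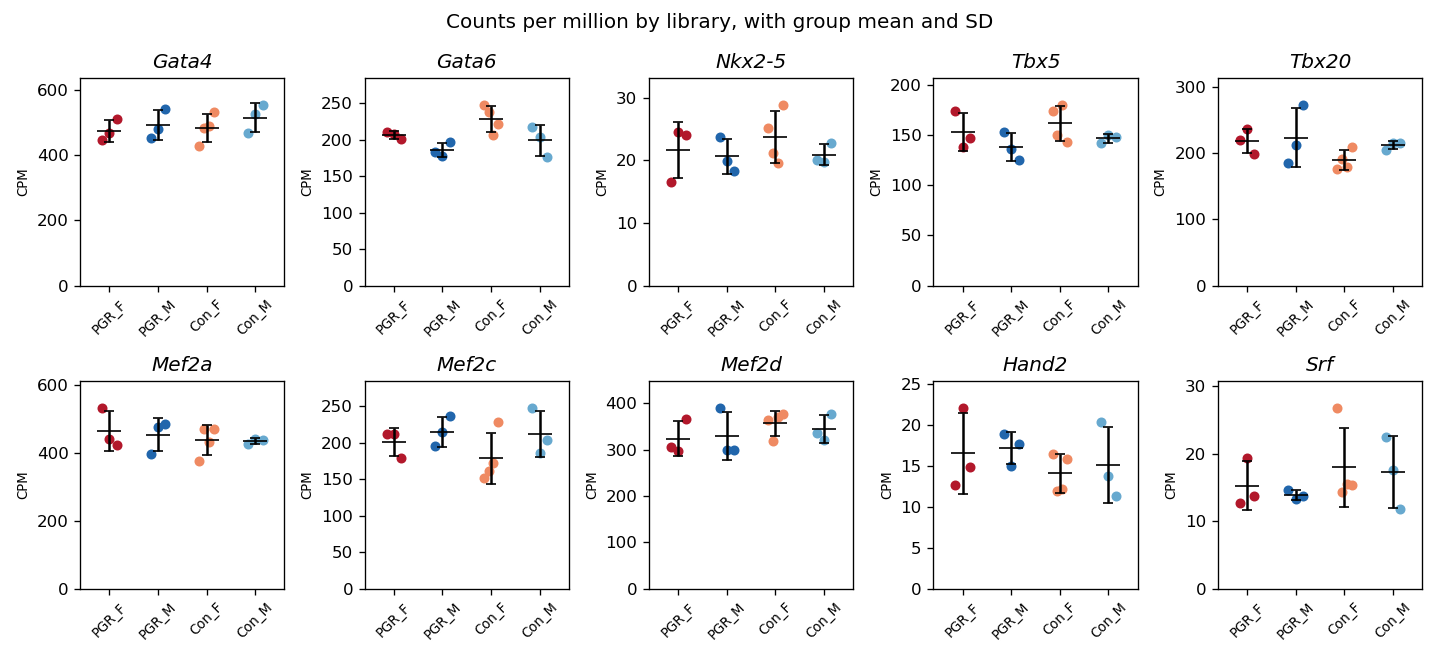
CPM of each of the 10 factors by library (y axis from 0), with points for libraries and bars for the group mean and SD; the groups are PGR_F, PGR_M, Con_F and Con_M. The PGR groups overlap their Con groups in every panel, and Srf has 1 library, Con_F 1, at 26.7 CPM far above the rest of its group.

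Gata4 and Gata6 are zinc finger proteins that bind the same GATA core and can stand in for one another in part. Gata4 (ENSMUSG00000021944, GRCm38 chromosome 14, 63198922 to 63271692, minus strand) had 446, 467 and 511 CPM in PGR_F and 454, 481 and 542 in PGR_M, against 429, 484, 488 and 533 in Con_F and 467, 525 and 553 in Con_M. It was the steadiest of the 10, with a coefficient of variation of 7.95% over the 13 libraries. Its log2 fold change averaged over the sexes was -0.05 (SE 0.07, 95% interval -0.20 to 0.10, edgeR adjusted p = 0.810), so a change beyond 0.874-fold or 1.08-fold lies outside the interval.

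Gata6 (ENSMUSG00000005836, chromosome 18, 11052064 to 11085635, plus strand) had 210.4, 208 and 200.2 CPM in PGR_F and 183, 178 and 196 in PGR_M, against 247, 238, 206 and 221 in Con_F and 217, 203.5 and 176 in Con_M. The means of the PGR groups were under those of the Con groups in both sexes. In PGR_F 2 of 3 libraries lay inside the Con_F range and in PGR_M all 3 lay inside the Con_M range. The log2 fold change was -0.14 (SE 0.09) in females, -0.10 (SE 0.09) in males and -0.12 (SE 0.06, 95% interval -0.26 to 0.01, edgeR adjusted p = 0.393) averaged, the smallest adjusted p among the members. Per length, Gata4 stood at 1.11 ± 0.166 times the level of Gata6 (SD, n = 13), with 0.802 as the lowest ratio, in Con_F 1, and 1.45 as the highest, in Con_M 3.

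Nkx2-5 (ENSMUSG00000015579, chromosome 17, 26838664 to 26845009, minus strand), the homeodomain factor that partners Gata4 and Tbx5, had 16.6, 24.6 and 24.0 CPM in PGR_F and 23.8, 19.9 and 18.2 in PGR_M, against 25.2, 21.2, 19.5 and 28.8 in Con_F and 20.1, 19.8 and 22.8 in Con_M. The spread within PGR_F and within Con_F was wider than any distance between group means. The averaged log2 fold change was -0.07 (SE 0.11, 95% interval -0.31 to 0.17, edgeR adjusted p = 0.822). In males it was -0.02 (SE 0.16).

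The T-box factors Tbx5, which acts in the left ventricle, atria and conduction system, and Tbx20, which is needed to maintain adult heart muscle in mice, lay on opposite sides of 0 in the averaged comparison, without a call. Tbx20 (ENSMUSG00000031965, chromosome 9, 24718138 to 24774303, minus strand) had 221, 236 and 199.7 CPM in PGR_F and 185, 213 and 273 in PGR_M, against 177, 191, 179.6 and 210.0 in Con_F and 205, 215 and 216 in Con_M. In females 2 of 3 PGR libraries lay above all 4 control libraries, and in males the PGR libraries spread on both sides of the controls. The log2 fold change was 0.21 (SE 0.11, 95% interval -0.03 to 0.45, edgeR adjusted p = 0.514) in females, 0.08 (SE 0.12) in males and 0.14 (SE 0.08, adjusted p = 0.438) averaged, and without PGR_M 3 the male value was -0.09.

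Tbx5 (ENSMUSG00000018263, chromosome 5, 119832668 to 119885219, plus strand) had 174, 138 and 147 CPM in PGR_F and 153, 136 and 125 in PGR_M, against 173, 150.3, 179 and 143 in Con_F and 141, 150.2 and 148 in Con_M. The ranges overlapped in both sexes. Its averaged log2 fold change was -0.08 (SE 0.08, 95% interval -0.24 to 0.08, edgeR adjusted p = 0.649). Over the 13 libraries the log2 CPM of Tbx5 and Tbx20 ran against each other, with Pearson r = -0.71 and Spearman rho = -0.58 as a description. Without Con_F 3 and PGR_M 3, the libraries farthest from the median of Tbx5, the Pearson r was -0.43, so it rests in part on those 2 libraries. The ratio of Tbx20 to Tbx5 per length was 1.35 ± 0.220 in PGR_F and 1.55 ± 0.462 in PGR_M, against 1.11 ± 0.210 in Con_F and 1.35 ± 0.0124 in Con_M (SD, n = 3, 3, 4 and 3).

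The 3 Mef2 genes encode MADS-box factors that share their DNA site and respond to calcium signals through class IIa histone deacetylases. They were not alike in level per length: Mef2d stood at 9.56 ± 1.96 times Mef2c and 3.67 ± 0.629 times Mef2a (SD, n = 13), and the order Mef2d, Mef2a, Mef2c held in 13 of 13 libraries. In CPM, which are not divided by length, Mef2a was highest at 447 ± 40.3, then Mef2d at 340 ± 34.7 and Mef2c at 200 ± 29.1. Exons cover 20.1% of the interval of Mef2d, 10.4% of that of Mef2a and 9.64% of that of Mef2c. Mef2d (ENSMUSG00000001419, chromosome 3, 88142372 to 88172086, plus strand) had 307, 298 and 366 CPM in PGR_F and 389, 299 and 299.7 in PGR_M, against 363, 318, 371 and 377 in Con_F and 336, 321 and 378 in Con_M. In each PGR group 2 of 3 libraries lay under all control libraries of that sex and 1 lay among or above them. The averaged log2 fold change was -0.10 (SE 0.08, 95% interval -0.28 to 0.07, edgeR adjusted p = 0.580).

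Mef2a (ENSMUSG00000030557, chromosome 7, 67231163 to 67372858, minus strand) had 531, 442 and 423 CPM in PGR_F and 398, 477 and 486 in PGR_M, against 377, 471, 432 and 472 in Con_F and 425, 441 and 437 in Con_M. PGR_F 1 was the highest library, and without it the female log2 fold change was -0.03 in place of 0.09. Averaged, it was 0.07 (SE 0.08, 95% interval -0.09 to 0.24, edgeR adjusted p = 0.699).

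Mef2c (ENSMUSG00000005583, chromosome 13, 83504034 to 83667080, plus strand), which is required for the early heart tube in mice, had 212, 213 and 179 CPM in PGR_F and 195, 215 and 236 in PGR_M, against 151, 162, 173 and 229 in Con_F and 247, 186 and 204 in Con_M. Con_F 4 was the high library of its group. In females the 3 PGR libraries lay above 3 of the 4 control libraries, at 0.17 on the log2 scale (SE 0.14, edgeR adjusted p = 0.674), which was 0.31 (adjusted p = 0.215) without Con_F 4. The male value was 0.02 (SE 0.15) and the averaged value 0.10 (SE 0.10, 95% interval -0.12 to 0.31, adjusted p = 0.701).

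Srf, the serum response factor, drives contractile and early-response genes with its coactivators Myocd and Mrtfa. Srf (ENSMUSG00000015605, chromosome 17, 46548329 to 46556175, minus strand) had 12.7, 19.4 and 13.7 CPM in PGR_F and 14.6, 13.2 and 13.7 in PGR_M, against 26.7, 14.3, 15.5 and 15.4 in Con_F and 22.5, 17.6 and 11.9 in Con_M. Con_F 1 and Con_M 1 were the highest libraries of their groups, and the PGR_M libraries were close together. It was the most variable member, at 26.5% over the 13 libraries, where its counts of 381 to 1933 give a counting error of 5.12% to 2.27%. The averaged log2 fold change was -0.28 (SE 0.18, 95% interval -0.69 to 0.12, edgeR adjusted p = 0.503), the largest in size among the members. It was -0.15 without Con_F 1, and in females alone it was 0.02 without Con_F 1 in place of -0.24 with it.

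Hand2 (ENSMUSG00000038193, chromosome 8, 57320983 to 57324633, plus strand), a basic helix-loop-helix factor of the right ventricle and the neural crest, had 12.6, 22.0 and 14.9 CPM in PGR_F and 18.9, 14.97 and 17.6 in PGR_M, against 16.5, 11.9, 12.1 and 15.8 in Con_F and 20.3, 13.7 and 11.3 in Con_M. PGR_F 2 and Con_M 1 were the highest libraries, 1 under each vector. The averaged log2 fold change was 0.20 (SE 0.16, 95% interval -0.15 to 0.55, edgeR adjusted p = 0.596), and the female value of 0.23 (SE 0.22) was -0.03 without PGR_F 2. Its neighbour Hand2os1, a long noncoding RNA on the opposite strand whose interval covers 3251 of the 3651 bases of Hand2 and the promoter printed above, was counted apart from it: the libraries are directional, and the deposited table is named as one of reverse-stranded, paired-end counts. The level of Hand2os1 was 159 ± 10.4 CPM in PGR_F and 161 ± 16.4 in PGR_M, against 148 ± 21.5 in Con_F and 168 ± 8.99 in Con_M (SD). It was read at 7.36 to 14.2 times the counts of Hand2, but at 0.623 to 1.20 times its level per length. The averaged log2 fold change of Hand2os1 was 0.02 (SE 0.08, edgeR adjusted p = 0.934), and over the 13 libraries it ran with Hand2 at Pearson r = 0.49 and Spearman rho = 0.48, as a description.

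**Figure D3:**
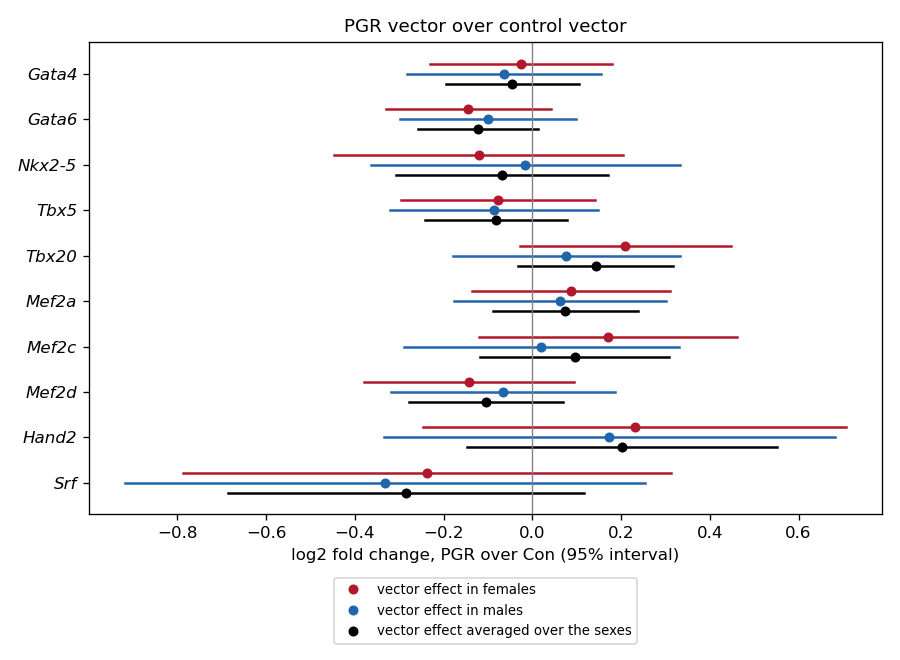
Log2 fold change of PGR over Con vector for each factor in females, males and averaged over the sexes; points are edgeR estimates and lines their 95% intervals. Every interval includes 0, and the intervals of Srf (-0.69 to 0.12 averaged) and Hand2 (-0.15 to 0.55) are the widest.

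An interaction term asked whether females and males responded unequally to the PGR vector. It was called for 0 of 10 members, where 0% of all genes were called. At an unadjusted p under 0.05 there were 0 members beside 3.26% of all genes, and DESeq2 called 0 members, beside 0.00621% of all genes. The female minus male response on the log2 scale was 0.15 (SE 0.20) for Mef2c, 0.13 (SE 0.16) for Tbx20 and -0.10 (SE 0.22) for Nkx2-5. It lay between -0.08 and 0.09 for the remaining 7. The edgeR adjusted p was 1.00 for every member. The intervals were wide: for Srf the difference could lie between -0.71 and 0.90, and for Gata6 between -0.32 and 0.23. For PGR over Con, 0 of 11 endothelial markers lay above 0 in females (median -0.245) and 11 of 11 in males (0.251). Their median female minus male response was -0.469. Fibroblast markers had 4 of 10 above 0 in females and 8 of 10 in males. The sums of both lists overlapped between the vectors in each sex, and no gene of either was called here. Their part in the member values was not tested.

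The sexes were also compared under each vector, on the log2 scale of female over male. In the PGR groups 0 of 10 members were called, where 0.143% of all genes were, and in the Con groups 0 of 10, where 0.229% were. The 23 genes called in the PGR groups were 44 without Con_F 4 and 10 to 12 without PGR_F 1, PGR_F 2, PGR_M 2 or PGR_M 3. The 37 genes called in the Con groups were 99 without Con_M 1, 92 without Con_F 4 and 14 to 24 without any of the other libraries but PGR_F 1 and PGR_M 1, again with 0 members in each. Unadjusted p values under 0.05 were found for 0 members in the PGR groups, beside 7.25% of all genes, and for 1 member in the Con groups, beside 12.4%. That member was Gata6, with 228 ± 17.9 CPM in Con_F (SD, n = 4) and 199 ± 20.9 in Con_M (n = 3), which gives 0.19 on the log2 scale (SE 0.09, 95% interval 0.01 to 0.38, edgeR adjusted p = 0.386). DESeq2 called 0 members in either comparison, beside 0.538% of all genes in the PGR groups and 1.51% in the Con groups, and held Gata6 alone under an unadjusted 0.05 in the Con groups.

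In the PGR groups Gata6 averaged 206 ± 5.35 CPM in females and 186 ± 9.60 in males (SD, n = 3 each), which gives 0.15 on the log2 scale (SE 0.09, edgeR adjusted p = 0.828). It was the single member whose female and male PGR libraries did not overlap, as was the case for 13.7% of all genes; in the Con groups 0 members were without overlap, beside 11.3% of all genes. Fibroblast markers lay above 0 as well: their sum was 84.0 to 133 CPM in PGR_F and 58.3 to 114 in PGR_M, and 113 to 141 in Con_F and 56.1 to 92.0 in Con_M, and 10 of 10 lay above 0 in both sex comparisons, with a median log2 fold change of 0.49 in the PGR groups and 0.74 in the Con groups. Endothelial markers summed to 65.0 to 80.1 CPM in Con_F and 32.5 to 61.6 in Con_M, with 11 of 11 above 0. In the PGR groups their sums overlapped, at 45.3 to 83.5 CPM in PGR_F and 36.2 to 68.6 in PGR_M, with 8 of 11 above 0. Of the 8 atrial markers 8 lay above 0 in the Con groups and 2 in the PGR groups. EdgeR called 0 genes of these 3 lists, and DESeq2 called Fbln1 and Pecam1 in the Con groups. At an unadjusted edgeR p under 0.05, more of them were higher in females in the Con groups than in the PGR groups. In the Con groups it was 7 of 10 fibroblast, 8 of 11 endothelial and 3 of 8 atrial markers, beside 12.4% of all genes. In the PGR groups it was 2, 0 and 0 in the same order, beside 7.25% of all genes. The part of the markers in the Gata6 values was not tested.

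Among the other members the widest sex difference in the Con groups was that of Mef2c, which averaged 179 ± 34.6 CPM in Con_F (SD, n = 4) and 212 ± 31.5 in Con_M (n = 3), which gives -0.25 on the log2 scale (SE 0.14, edgeR adjusted p = 0.469), or -0.13 without Con_M 1 and -0.39 without Con_F 4. In the PGR groups it was -0.10 (SE 0.15). Tbx20 was at -0.16 (SE 0.11), Nkx2-5 at 0.18 (SE 0.15) and Tbx5 at 0.14 (SE 0.10) in the Con groups, and at -0.03 (SE 0.12), 0.08 (SE 0.16) and 0.15 (SE 0.11) in the PGR groups, in the same order of genes. The comparisons share no libraries with each other, though they come from the same fit. Tbx5 had the same sign and nearly the same size in both, but its value in the PGR groups was 0.040 without PGR_F 1. Gata6, Mef2c, Tbx20 and Nkx2-5 kept their sign as well. Gata4, Mef2a, Mef2d, Hand2 and Srf lay between -0.11 and 0.14 in both comparisons.

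**Figure D4:**
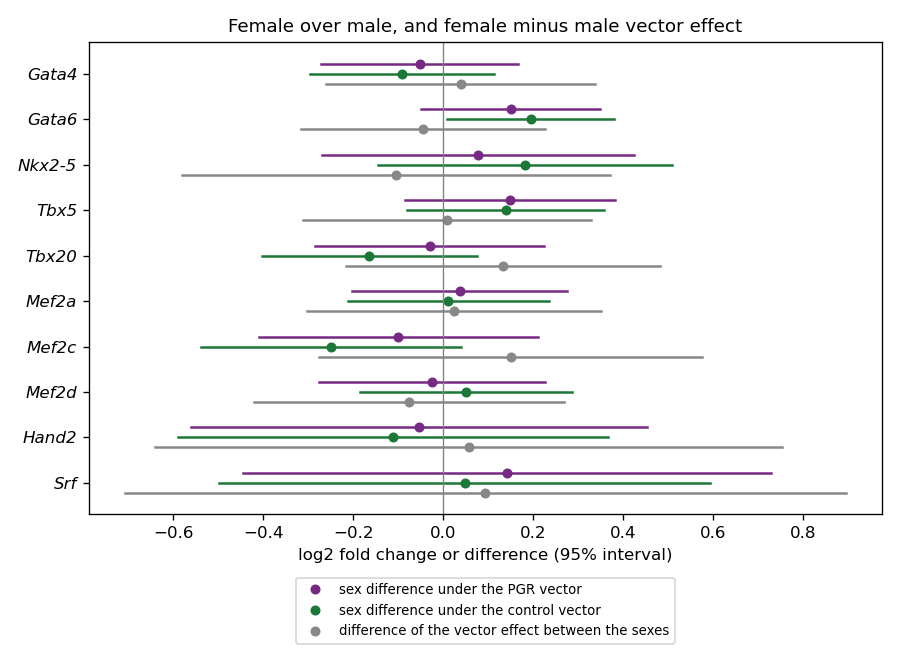
Log2 fold change of female over male for each factor under the PGR vector and under the control vector, and the response to PGR in females minus that in males; points are edgeR estimates and lines 95% intervals. Only the Gata6 interval in the control groups (0.01 to 0.38) stays above 0, and it did not pass after adjustment over all genes.

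The proteins that work with these factors were read in the same way. Of 21 listed cofactors 20 were tested, and edgeR called 0 in any of the 6 comparisons. In the averaged vector comparison 1 of 20 had an unadjusted p under 0.05, beside 14.8% of all genes, and the median log2 fold change was -0.02. That gene was Smarcd3, the chromatin remodelling subunit that joins Tbx5 and Gata4 at heart genes. It had 29.3 ± 2.34 CPM in PGR_F and 30.9 ± 2.75 in PGR_M, against 38.2 ± 2.62 in Con_F and 33.3 ± 3.10 in Con_M (SD), an averaged log2 fold change for the vector of -0.24 (SE 0.07, edgeR adjusted p = 0.135). In females all 3 PGR libraries (27.3 to 31.9 CPM) lay under all 4 controls (35.8 to 41.6 CPM), while in males the ranges overlapped. DESeq2 called this gene, as 1 of 20 cofactors, in females (adjusted p = 0.0353) and averaged (adjusted p = 0.0452), and called 0 of 20 in the 4 remaining comparisons, so the call rests on the tool. Mrtfa, the coactivator of Srf, was at -0.13 (SE 0.06, adjusted p = 0.367) and the TEA domain factor Tead4 at -0.31 (SE 0.16, adjusted p = 0.397). In the difference between the sexes Mrtfa was at -0.29 (SE 0.12), Smarcd3 at -0.27 (SE 0.13) and Zfpm2, the partner of Gata4, at 0.27 (SE 0.14), each with an adjusted p of 1.00.

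Of 23 other cardiac regulators 18 were tested; Hand1, Isl1, Gata5, Tbx1 and Nkx2-6 lay under the count filter. None of the 18 was called by edgeR or by DESeq2 in any comparison, and DESeq2 gave 2 of them no adjusted p outside the interaction. At an unadjusted p under 0.05 there were 2 higher in the averaged vector comparison, beside 7.37% of all genes, with a median log2 fold change of 0.01. Meis1, a homeodomain factor that restrains cardiomyocyte division in mice, had 311 ± 30.4 CPM in PGR_F and 304 ± 24.5 in PGR_M, against 255 ± 33.4 in Con_F and 283 ± 24.6 in Con_M, an averaged log2 fold change for the vector of 0.19 (SE 0.08, edgeR adjusted p = 0.284). Hey2, a transcriptional repressor found in the compact ventricular wall, was at 0.22 (SE 0.09, adjusted p = 0.299) and Tbx3, a conduction system factor, at 0.22 (SE 0.11, adjusted p = 0.392). Between the sexes the vector effects of Hey2, Meis2 and Irx3 differed by 0.33 (SE 0.19), 0.22 (SE 0.13) and -0.43 (SE 0.31), each with an adjusted p of 1.00.

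All 14 listed class IIa deacetylases and other regulators of Mef2 were tested and 0 were called by edgeR or by DESeq2 in any comparison. In the averaged vector comparison the median log2 fold change was 0.04 and 1 of 14 had an unadjusted p under 0.05, beside 14.8% of all genes. This was Prkd1, a kinase that sends class IIa deacetylases out of the nucleus, with 106 ± 15.9 CPM in PGR_F and 98.6 ± 10.8 in PGR_M, against 81.8 ± 13.9 in Con_F and 93.8 ± 5.37 in Con_M, an averaged log2 fold change for the vector of 0.23 (SE 0.09, edgeR adjusted p = 0.280). Hdac9, a deacetylase that represses Mef2, was at 0.18 (SE 0.11) and Ppp3ca, a catalytic subunit of calcineurin, at 0.09 (SE 0.06). Cabin1, a repressor of Mef2, had the smallest p for the difference between the sexes, at -0.27 (SE 0.12, adjusted p = 1.00), followed by Mapk7 at -0.40 (SE 0.22) and Mapk14 at 0.19 (SE 0.11).

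Target genes of the factors lay more often under than above 0 in the averaged vector comparison, without a call by edgeR. Of 32 listed targets 31 were tested, and 12 of 31 lay above 0, beside 51% of all genes. The median log2 fold change was -0.08, beside 0.00 over all genes. The cardiomyocyte markers, all but Pln also on this target list, had 2 of 10 above 0 and a median of -0.10. By sex, 11 of 31 targets lay above 0 in females and 15 of 31 in males. For the cardiomyocyte markers it was 2 of 10 in females and 5 of 10 in males. Of the 31 targets, 3 were higher and 5 lower at an unadjusted p under 0.05 averaged, beside 7.37% and 7.45% of all genes. After adjustment 0 passed edgeR's test in any comparison. Tnnc1, the calcium-binding troponin of heart muscle and a target of Gata4 and Mef2, had 67.1 ± 9.09 CPM in PGR_F and 62.5 ± 7.30 in PGR_M, against 93.3 ± 18.2 in Con_F and 87.5 ± 8.62 in Con_M (SD), an averaged log2 fold change for the vector of -0.48 (SE 0.10, edgeR adjusted p = 0.0902). In males the PGR range of 54.4 to 68.5 CPM lay under the control range of 82.0 to 97.5 CPM, and in females the ranges met, at 57.5 to 75.5 against 75.2 to 118 CPM. Acta1, the skeletal actin gene that Srf drives, was at -0.62 (SE 0.19, adjusted p = 0.179), with 2.28 ± 0.921 CPM in PGR_F and 4.005 ± 0.736 in PGR_M, against 3.16 ± 0.944 in Con_F and 6.91 ± 1.00 in Con_M. DESeq2 called 2 of 31 targets in the averaged comparison, Tnnc1 (adjusted p = 0.00317) and Acta1 (adjusted p = 0.0412), both lower with PGR, where it called 2.51% of all genes. It also called Acta1 for female over male in the Con groups, at -1.13 on the log2 scale (adjusted p = 0.00237), and called 0 targets in the other 4 comparisons. The myosin light chain gene Myl3 was at -0.23 (SE 0.08, adjusted p = 0.204). The remaining genes with an unadjusted p under 0.05 in the averaged comparison are named here after their values were seen. Under 0 on the averaged log2 scale were Tnni3, cardiac troponin I, at -0.26 (SE 0.10) and Ckm, muscle creatine kinase, at -0.42 (SE 0.14). Above 0 were the early-response gene Fos at 1.68 (SE 0.53), the myomesin gene Myom2 at 0.32 (SE 0.11) and Nppa at 0.57 (SE 0.26), and the edgeR adjusted p of these 5 genes lay between 0.205 and 0.326. Fos had 5.25 ± 3.83 CPM in PGR_F and 4.41 ± 1.90 in PGR_M, against 1.34 ± 0.832 in Con_F and 1.69 ± 0.862 in Con_M (SD). PGR_F 1, at 0.842 CPM, lay among the controls. Nppa had 4.07 ± 1.76 CPM in PGR_F and 5.63 ± 2.31 in PGR_M, against 4.08 ± 1.07 in Con_F and 2.61 ± 0.535 in Con_M (SD), which gives 1.11 (SE 0.38, edgeR adjusted p = 0.611) in males. Nppa is also 1 of the 8 atrial markers, of which 8 lay above 0 in the averaged comparison, 7 in males and 3 in females. In males the atrial markers summed to 17.5 to 30.3 CPM in PGR_M against 14.8 to 16.5 in Con_M. In females their sums overlapped, at 16.5 to 29.7 CPM in PGR_F against 17.6 to 28.0 in Con_F. The part of the atrial markers in the Nppa values was not tested. Of the marker lists, DESeq2 called 1 gene in the averaged comparison, the leukocyte gene Ptprc, at 0.73 on the log2 scale (adjusted p = 0.0426), where edgeR gave 0.72 (SE 0.22, adjusted p = 0.178). Ptprc had 3.44 ± 1.65 CPM in PGR_F and 2.40 ± 0.569 in PGR_M, against 2.33 ± 0.639 in Con_F and 1.27 ± 0.320 in Con_M (SD). The 10 macrophage markers, of which it is 1, summed to 20.3 to 27.0 CPM in PGR_F and 16.3 to 25.3 in PGR_M, against 19.1 to 24.8 in Con_F and 15.2 to 20.7 in Con_M, and their part in the target values was not tested. For the difference between the sexes Nppa, which encodes a natriuretic hormone of the heart, was at -1.09 (SE 0.51) and the cardiac actin gene Actc1 at 0.60 (SE 0.36), each with an adjusted p of 1.00. These targets were listed from general knowledge, and whether the factors bind them in these nuclei was not measured here.

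The members did not move as a block between libraries. Of their pairs, Tbx20 with Mef2c (Pearson r = 0.70, Spearman rho = 0.65), Gata6 with Srf (0.64 and 0.60) and Tbx20 with Mef2a (0.61 and 0.72) had the highest correlations of log2 CPM over the 13 libraries. Without the 2 libraries farthest from the median of the first gene, Con_F 1 and either PGR_M 3 or Con_M 3, their Pearson r was 0.55, 0.31 and 0.43 in that order. With each library taken as its deviation from its group mean, the highest pairs were Hand2 with Srf at Pearson r = 0.83 (0.55 over the libraries as they stand), Gata6 with Srf at 0.68 and Tbx20 with Mef2a at 0.63, and Tbx20 with Mef2c was at 0.58. In each group the same library was highest in both Hand2 and Srf: Con_F 1, Con_M 1, PGR_F 2 and PGR_M 1. These deviations were not read again without their farthest libraries. Over the libraries as they stand, Tbx5 with Tbx20, Tbx20 with Mef2d (-0.64 and -0.55) and Tbx5 with Mef2c (-0.64 and -0.74) had the lowest. The genes most like each member were taken from 9952 tested genes with a mean log2 CPM of at least 1, so the values below are the highest of many and carry no p. They are given as Pearson r and Spearman rho. Without the 2 libraries farthest from the median of the member, the Pearson r of these pairs lay between 0.74 (Mef2c with Arl15) and 0.94 (Gata4 with Rcan1). Gata4 ran closest with Rcan1 (0.95 and 0.97), an inhibitor of calcineurin, and with Fsd2 (0.88 and 0.86). Rcan1 had 102 to 153 CPM in PGR_F and 121 to 175 in PGR_M, against 111 to 167 in Con_F and 117 to 179 in Con_M, and in each group the library highest in Gata4 was also the highest in Rcan1.

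Mef2c ran closest with Nebl (0.92 and 0.88), which encodes the thin filament protein nebulette, and Arl15 (0.88 and 0.80), and Mef2a with Kdm4c (0.93 and 0.85). Mef2d ran closest with the histone demethylase gene Kdm6b (0.92 and 0.89) and Mbd6 (0.92 and 0.88). For Tbx20 the closest were Zmynd11 (0.93 and 0.94) and the splicing regulator Mbnl1 (0.91 and 0.78), and for Tbx5 the long noncoding RNA Firre (0.95 and 0.93) and Snx29 (0.93 and 0.95). Gata6 ran with the splicing factor genes Srsf5 (0.93 and 0.90) and Sf1 (0.92 and 0.86), and Nkx2-5 with Tuba4a (0.89 and 0.93) and Yipf3 (0.89 and 0.93). Srf ran closest with Kin (0.96 and 0.84) and Noct (0.96 and 0.93), and Hand2 with the orphan nuclear receptor gene Nr4a2 (0.91 and 0.90) and Emd (0.89 and 0.90). Noct had its highest values, 116 and 81.2 CPM, in Con_F 1 and Con_M 1, where Srf was highest too. Fos and Egr1, textbook targets of Srf chosen for this look after their values were seen, did not follow it, with Pearson r = -0.28 for Fos and -0.18 for Egr1 and Spearman rho = -0.21 for Fos and -0.04 for Egr1. Without Con_F 1 and Con_M 1 the Pearson r was 0.03 for Fos and 0.21 for Egr1, and it was 0.87 for Noct. Fos was read at 0.554 to 7.74 CPM and Egr1 at 0.468 to 1.72 CPM.

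Other genes overlap Gata6, Mef2a, Mef2d and Srf too, and those on the opposite strand were counted apart in the same way. 1700113A16Rik overlaps 531 bases of Mef2d on the opposite strand and had 12 to 46 counts per library. Lysmd4, on the opposite strand, overlaps 76168 bases of Mef2a and had 225 to 669 counts per library, against 14046 to 36495 for Mef2a. Gm26904 spans the whole of Srf on the opposite strand with 138 to 460 counts over an interval of 353721 bases. The genes on the same strand inside a member, Gm44667 and Gm44668 in Mef2a and Mir6976 in Srf, had 0 counts in every library. On the opposite strand, 1010001N08Rik overlaps the first 504 bases of Gata6. Gm29824 and Gm43050 start close to Tbx20 and Tbx5 on the opposite strand without overlap, and Gm43050 had 50 to 166 counts per library. 1010001N08Rik had 88.2 ± 5.33 CPM in PGR_F and 73.0 ± 7.93 in PGR_M, against 82.6 ± 6.43 in Con_F and 75.5 ± 6.93 in Con_M, so that its means were higher in females under both vectors, as those of Gata6 were, with a log2 fold change for female over male of 0.27 (SE 0.10, edgeR adjusted p = 0.539) in the PGR groups and 0.13 (SE 0.09, adjusted p = 0.593) in the Con groups. Gm29824 had 2.74 ± 0.312 CPM in PGR_F and 2.19 ± 0.192 in PGR_M, against 1.85 ± 0.311 in Con_F and 2.21 ± 0.365 in Con_M, with a log2 fold change for the vector of 0.56 (SE 0.17, adjusted p = 0.309) in females and -0.0029 (SE 0.18) in males.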

How the data were processed

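For 13 libraries the authors deposited whole-number counts of reads by gene. Per the labels' protocols, RNA of sorted nuclei was depleted of ribosomal RNA and made into directional libraries. The deposited tables are named as paired-end, reverse-stranded counts. STAR 2.5.3a and featureCounts 1.5.0 are listed, per the submitters' processing notes, beside the mouse builds mm10 and GRCm38. A gene length is given per the file headers, and for all 55536 genes it equals the end minus the start plus 1, so introns are included and nascent RNA can contribute. The smaller deposited table holds 15645 genes, those with a mean count of at least 10, with 0 differing values.

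The counts went into edgeR 4.0.16 under R 4.3.3: filterByExpr, TMM factors, 4 group means fitted to all 13 libraries with a robust quasi-likelihood model, and Benjamini-Hochberg adjustment over 16125 genes. An adjusted p under 0.05 counts as passing. Contrasts are PGR over Con, female over male, and their interaction. CPM are scaled with TMM, and log2 CPM used a prior count of 2. Intervals of 95% use the standard error and the moderated degrees of freedom. The model was tested on simulated data. Alternatives were DESeq2 1.42.0, its size factors, other filters, a replicate block, the 2 groups compared alone, and leaving out each library. DESeq2 calls of list genes were added after seeing the data. The members, lists and rules were chosen with earlier results of these data known. Named from each list were the 3 genes with the smallest p in the averaged vector effect and in the difference between the sexes, and for each member the 2 genes with the highest Pearson r. Some genes that this rule names are not reported here. No source says whether the pools of a group came from separate litters, so p-values measure the spread between pools only. Counting error is small beside that spread, at 0.499% to 5.25% per member and library. The 95% intervals assume libraries of equal spread.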

Additional observations from a re-analysis of the deposited data

Results flagged for a closer look

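The Srf level of Con_F 1, at 26.7 CPM, stood apart from the other 3 Con_F libraries (14.3 to 15.5 CPM) further than a test for 1 outlying value in 4 allows. Of the 10 members tested this way in Con_F it was the only one, and chance flags about 1 in 20 such groups. Con_F 1 was also the highest library for Noct, at 116 CPM. Noct was picked for running with Srf over these same libraries, so this is no separate evidence.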

How the results depend on the processing

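None of the 10 members was called in any of the 6 comparisons under any alternative run. Outside the settings that leave out a library, 5 values of members changed sign and 315 kept it. Without a filter on low counts Nkx2-5 in males was at 0.0060 and Tbx5 in the response of females minus that of males at -0.016. No label says whether the replicate numbers pair the libraries, and the deviations from the group means do not settle it. Same-numbered PGR and Con libraries of a sex deviated with r from -0.245 to 0.0496, beside -0.144 to 0.192 for differently numbered ones. Same-numbered female and male libraries did so with r from -0.0495 to 0.247, beside -0.325 to 0.125 for the differently numbered ones compared. With a replicate block, Hand2 in the response of females minus that of males was at -0.013, and for female over male in the PGR groups Nkx2-5 was at -0.058 and Tbx20 at 0.011, with 35 genes called there. The number of genes called over all genes depended on the method. DESeq2 called 81 in females, 29 in males, 334 averaged, 1 for the interaction, 80 for the sexes in the PGR groups and 224 in the Con groups. Without the filter edgeR called 25, 12, 146, 1, 51 and 131 in the same order, and 1 in males from the 2 groups alone; the cause was not tested. Leaving out 1 library in turn, edgeR called 0 to 20 genes in females, 0 to 3 in males, 1 to 338 averaged, 0 for the interaction, 10 to 44 for the sexes in the PGR groups and 14 to 99 in the Con groups. Leaving out 1 library moved the log2 value of some members across 0. For PGR over Con in females these were Gata4 (-0.087 to 0.024), Nkx2-5 (-0.22 to 0.031), Mef2a (-0.025 to 0.15), Hand2 (-0.031 to 0.38) and Srf (-0.45 to 0.021). In males they were Nkx2-5 (-0.13 to 0.072), Tbx20 (-0.086 to 0.19), Mef2c (-0.060 to 0.15) and Mef2d (-0.20 to 0.011). Averaged over the sexes it was Nkx2-5 (-0.13 to 0.0088). For the response in females minus that in males they were Gata4 (-0.025 to 0.11), Gata6 (-0.12 to 0.026), Nkx2-5 (-0.20 to 0.044), Tbx5 (-0.10 to 0.090), Mef2a (-0.089 to 0.083), Mef2d (-0.18 to 0.063), Hand2 (-0.24 to 0.21) and Srf (-0.16 to 0.35). For female over male in the PGR groups they were Gata4 (-0.12 to 0.010), Nkx2-5 (-0.020 to 0.23), Tbx20 (-0.15 to 0.12), Mef2a (-0.077 to 0.095), Mef2d (-0.13 to 0.11), Hand2 (-0.32 to 0.091) and Srf (-0.069 to 0.24). In the Con groups they were Mef2a (-0.026 to 0.074), Mef2d (-0.0017 to 0.12), Hand2 (-0.28 to 0.17) and Srf (-0.21 to 0.29). The intervals of Srf and Hand2 allow changes that those of Gata4 and Gata6 do not, and with 3 or 4 pools a group, differences within them were not detectable.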
